A study of Mus musculus with 6 samples.

Results

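Prohormone processing in pancreatic islets was described through 5 genes, Pcsk1, Pcsk2, Cpe, Pam and Pcsk1n, chosen by gene symbol from a table of 11106 genes. All 5 were listed and all 5 passed the filter on low counts. Islets came from 6 male mice in which both copies of Ern1, the gene of the endoplasmic reticulum stress sensor IRE1α, were floxed. In 3 of them (knockout 11, 12 and 13) the VE-cadherin-Cre-ERT2 transgene, a Cre switched on by tamoxifen and driven by an endothelial promoter, deleted the gene, and 3 littermates without Cre (floxed 8, 18 and 19) kept it. Both groups received 2 mg tamoxifen on 5 days in a row at 4 weeks of age, and both were fed for 16 weeks, from 8 weeks of age, on high fat food (60% of calories). No mouse on another diet and no mouse with Cre but without floxed alleles is among the 6 samples. The study asked how endothelial IRE1α supports islet vessels under excess nutrition. The endocrine cells that express the processing enzymes kept Ern1 in both groups, so by design the comparison reads these genes in endocrine cells beside vessels without IRE1α.

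Peptide hormones are made as longer precursors that are cut and trimmed inside secretory granules. The convertases PC1/3 (Pcsk1) and PC2 (Pcsk2) cut after pairs of basic residues, carboxypeptidase E (Cpe) removes the exposed basic residues, and peptidylglycine alpha-amidating monooxygenase (Pam) turns a terminal glycine into an amide on peptides such as amylin. ProSAAS (Pcsk1n) is a granin-like precursor that inhibits PC1/3. Beta cells use both convertases to turn proinsulin into insulin and C-peptide, while alpha cells use mainly PC2 to release glucagon from proglucagon.

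Total counts ran from 18470720 to 18957444 per library. The libraries carried the defining islet markers, with Ins1 and Ins2 together holding between 28.2% and 43.4% of counts, and Gcg, Sst and Ppy each at 1242 CPM or more in every library (CPM are counts scaled to library size, here by TMM). Acinar markers, from exocrine tissue around the islet, held 14.1 to 19.8% of counts in knockout and 3.16 to 9.45% in floxed libraries. Immediate early genes, which rise within minutes of cell stimulation or tissue handling, held 1.84 to 1.91% in knockout libraries, 1.25% in floxed 8, and 0.247% and 0.231% in floxed 18 and 19. Floxed 8 therefore stood with the knockout libraries in the early genes, and it also had the highest Gcg of all libraries, 31335 CPM against 14583 to 19231 CPM elsewhere. In whole islets, fewer cells of a type and less RNA per cell cannot be told apart. Ern1 itself averaged 41.6 ± 5.39 CPM over the knockout mice and 40.2 ± 8.83 CPM over the floxed mice (SD, n = 3 each), which checks the labels very little, since most islet cells keep the gene.

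The start regions of the convertase genes are shown because Pcsk1 and Pcsk2 behaved differently across the libraries. A link between these sequences and the levels was not tested. Sequences are the bases before the RefSeq transcript start in GRCm38.p6 (250 for Pcsk2; for Pcsk1 the 219 that also precede the start in GENCODE), 5′ to 3′, with capitals at matches to the motifs searched. The Pcsk1 sequence is chr13:75089607-75089825, plus strand, and the Pcsk2 sequence is chr2:143545883-143546132, plus strand.
Pcsk1: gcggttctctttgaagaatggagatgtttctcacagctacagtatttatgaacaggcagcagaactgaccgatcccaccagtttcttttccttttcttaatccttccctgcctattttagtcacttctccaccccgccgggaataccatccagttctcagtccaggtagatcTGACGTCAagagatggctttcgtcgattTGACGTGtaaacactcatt
Pcsk2: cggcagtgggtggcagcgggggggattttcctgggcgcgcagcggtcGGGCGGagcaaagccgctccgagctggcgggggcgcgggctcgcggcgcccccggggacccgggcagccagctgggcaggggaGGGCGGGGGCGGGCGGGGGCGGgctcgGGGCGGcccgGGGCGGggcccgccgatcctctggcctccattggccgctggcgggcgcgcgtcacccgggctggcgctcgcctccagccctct
The capitals in Pcsk1 are a cAMP response element, TGACGTCA, 78 to 71 bases before the RefSeq start, which lies 31 bases past the end of the printed sequence, and TGACGTG, the core of the unfolded protein response element, 50 to 44 bases before that start. Both strands were searched in the 250 bases before 32851 RefSeq starts, of which 1.55% held TGACGTCA and 1.65% held TGACGTG. The capitals in Pcsk2 are 7 matches to the GC box GGGCGG, some overlapping, a motif held by 32.7% of all windows. Neither convertase window matched the AP-1 site TGANTCA (6.75% of all windows), the ER stress response element (0.113%) or TATAAA (12.4%). The Pcsk2 sequence was 82.4% G and C and the Pcsk1 sequence 45.7%. Of the other members, Pam and Pcsk1n matched the sequence table and Cpe is named only, so 4 of 5 were searched. The Pcsk1n window held 1 AP-1 match, TGAGTCA, 234 to 228 bases before its start, and 1 GC box. Pam, the member whose levels were most like those of Pcsk1 (below), held only GC boxes among the motifs searched. It matched neither TGACGTCA nor TGACGTG, and the bases before its starts were 75.6 and 76.3% G and C. A match describes the letters and not the binding of a factor.

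The 5 processing genes lay among the most abundant of islet mRNAs and none passed the test of a difference between the groups. Their means were 6.32% (Cpe) to 15.6% (Pcsk2) lower in knockout islets, and 0 of 5 passed an adjusted p of 0.05, with 0 of 5 at an unadjusted p below 0.05 (edgeR quasi-likelihood test, Benjamini-Hochberg over 11080 genes). Over all genes tested, 0.406% passed the adjusted and 17.9% the unadjusted threshold. Their median log2 fold change was -0.19, beside -0.0029 over all genes tested, -0.13 over beta cell markers and -0.060 over pan-endocrine genes. The negative sign was kept for Pcsk2 and Pcsk1n in all 20 alternatives, but Cpe turned positive when libraries were scaled to pan-endocrine genes (0.016), and Pcsk1 and Pam when the immediate early level entered the fit (0.069 and 0.089). Because the counts were high (at least 4434 per library for each gene), counting error was at most 1.502% of a value, and the coefficients of variation between mice of a group, 2.37 to 15.4%, were larger than that for every gene.

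**Figure D1:**
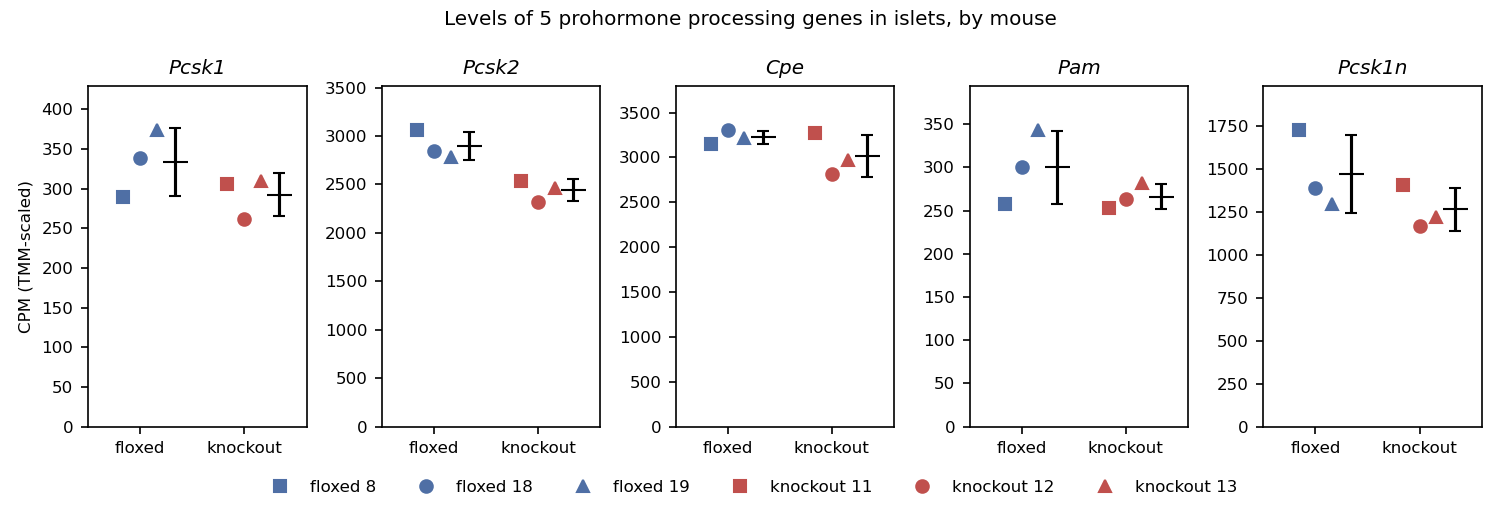
Level of each processing gene in every library as TMM-scaled CPM, with the y axis from 0. Points are mice, blue for floxed and red for knockout, and the black mark and bar are the group mean and SD (n = 3). The groups are apart only for Pcsk2, where the lowest floxed library is at 2779 CPM and the highest knockout library at 2539 CPM.

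Pcsk2, which encodes PC2, was the gene whose groups did not overlap. On chromosome 2 it spans 143546156 to 143816285 in the GRCm38 build. In floxed 8, 18 and 19 the level was 3057, 2846 and 2779 CPM, against 2539, 2320 and 2467 CPM in knockout 11, 12 and 13. Every knockout library was below every floxed library, floxed 8 included, and a gap of this kind with lower knockout values was seen for 10.2% of all genes tested. The floxed mean was 2894 ± 145 CPM and the knockout mean 2442 ± 112 CPM (SD, n = 3 each). The fitted change was -0.25 on the log2 scale (standard error 0.19, 95% interval -0.67 to 0.18, edgeR adjusted p = 0.542), which as a fold runs from 0.627 to 1.14. DESeq2 gave a standard error of 0.088 for the same difference, an unadjusted p of 0.00444 and an adjusted p of 0.0737, still above the threshold. The antisense genes Pcsk2os1 and Pcsk2os2 overlap 260 and 77 bases of Pcsk2 exons, out of 4723, and no source used here gives the strand setting.

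Scg5 encodes 7B2, the chaperone that PC2 needs in order to mature. Scg5 reached 722, 636 and 653 CPM in floxed 8, 18 and 19, against 662, 542 and 556 CPM in knockout 11, 12 and 13, so the groups overlapped through knockout 11 alone. The estimate was -0.19 on the log2 scale (standard error 0.14; edgeR adjusted p = 0.519). Per Pcsk2 read there were between 0.223 and 0.261 Scg5 reads in every library, a narrow range in which the groups overlapped.

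Pcsk1, which encodes PC1/3 and starts proinsulin cleavage, lies on chromosome 13 from 75089826 to 75134861. Pcsk1 measured 289, 339 and 373 CPM in floxed 8, 18 and 19, against 306, 262 and 310 CPM in knockout 11, 12 and 13. Floxed 18 and 19 were above all knockout libraries, while floxed 8 lay below knockout 11 and 13. On the log2 scale the change was -0.19 (standard error 0.13, interval -0.49 to 0.11, edgeR adjusted p = 0.4996), a fold from 0.712 to 1.08. Without floxed 8 it was -0.29 (standard error 0.11, interval -0.53 to -0.049), and the edgeR adjusted p was 0.105, in a comparison where 14.3% of all genes passed and 0 of the 5 members did. It was smaller without floxed 19 (-0.10) or knockout 12 (-0.12). In the fit without floxed 8, 15 of 16 immediate early genes and 20 of 27 acinar markers were called higher in knockout islets. Here and below, the effect of the knockout in that fit cannot be told apart from those differences.

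Pcsk1n, the gene of the PC1/3 inhibitor proSAAS, lies on the X chromosome from 7919822 to 7924410. In floxed 8, 18 and 19 the level was 1726, 1391 and 1296 CPM, against 1408, 1167 and 1221 CPM in knockout 11, 12 and 13. The highest value was that of floxed 8, and knockout 11 exceeded both floxed 18 and floxed 19. Its log2 fold change was -0.22 (standard error 0.18; edgeR adjusted p = 0.5796), and -0.092 without floxed 8. Exons of Eras on the opposite strand overlap 135 of its 2193 exonic bases. Set against the enzyme it inhibits, Pcsk1n had 4.60, 4.46 and 3.94 reads per Pcsk1 read in knockout 11, 12 and 13 and 5.97, 4.10 and 3.47 in floxed 8, 18 and 19. The log2 of this ratio was 2.14 ± 0.401 over the floxed and 2.11 ± 0.119 over the knockout mice (SD, n = 3 each), so the group means differed by -0.025, less than the spread between mice (exact two-sided permutation p = 0.90).

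Cpe was the most abundant of the 5 and the least different. It lies on chromosome 8 from 64592542 to 64693054. Cpe measured 3149, 3301 and 3217 CPM in floxed 8, 18 and 19, against 3274, 2811 and 2971 CPM in knockout 11, 12 and 13. Knockout 11 lay within the floxed range and knockout 12 and 13 below it. On the log2 scale the change was -0.094 (standard error 0.20, interval -0.54 to 0.35, edgeR adjusted p = 0.845), so a fold from 0.687 to 1.28 remained within the interval. It was -0.16 without knockout 11 and -0.046 without knockout 12.

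Pam, the amidating enzyme, lies on chromosome 1 from 97795114 to 98095646. In floxed 8, 18 and 19 the level was 258, 300 and 343 CPM, against 253, 264 and 282 CPM in knockout 11, 12 and 13. As for Pcsk1, floxed 18 and 19 were above all knockout libraries and floxed 8 was not. On the log2 scale the change was -0.17 (standard error 0.13, interval -0.46 to 0.12, edgeR adjusted p = 0.522), and without floxed 8 it was -0.28 (standard error 0.10; edgeR adjusted p = 0.0976). Leaving out floxed 19 instead moved it to -0.068.

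**Figure D2:**
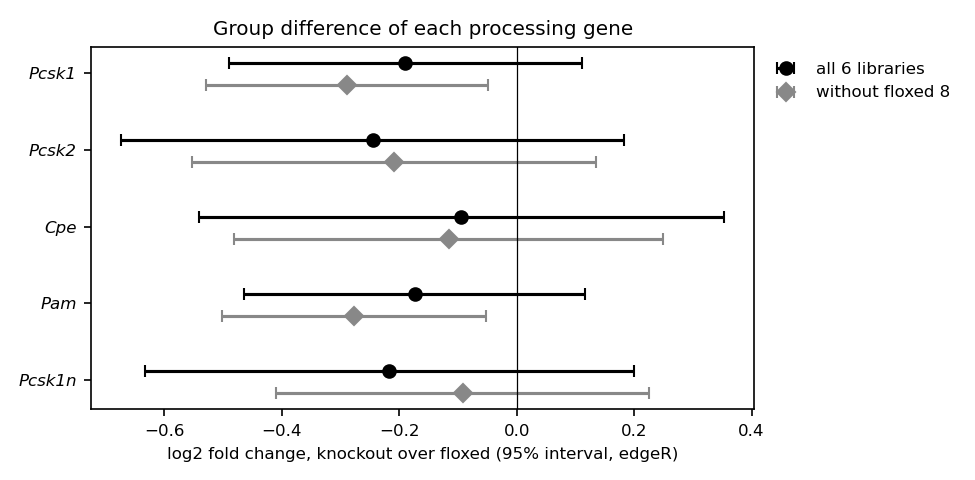
Log2 fold change of each processing gene, knockout over floxed, with its 95% interval from edgeR, for all 6 libraries (black) and without floxed 8 (grey). With all 6 libraries the 5 intervals span 0, and without floxed 8 those of Pcsk1 (-0.53 to -0.049) and Pam (-0.50 to -0.052) lie below 0 although their adjusted p stays above 0.05.

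In floxed 8 the members other than Cpe parted in 2 directions. Pcsk1 and Pam were lower in floxed 8 than in floxed 18 and 19, by log2 deviations from their own means of -0.11 and -0.13 in floxed 8 against 0.12 and 0.091 in floxed 18 and 0.26 and 0.28 in floxed 19. Pcsk2 and Pcsk1n instead had their highest deviations in floxed 8, 0.20 and 0.35, and Cpe varied little in any library (-0.15 to 0.083). The likeness was measured as the root mean square difference of centred log2 CPM over the 6 libraries, a description without a test. It was smallest between Pcsk1 and Pam (0.083), then between Pcsk2 and Cpe (0.098) and between Pcsk2 and Pcsk1n (0.099), and largest between Pam and Pcsk1n (0.27). The mean log2 CPM of 16 immediate early genes was 8.65 to 8.77 in knockout libraries, 8.28 in floxed 8, and 5.63 and 5.75 in floxed 18 and 19, so the libraries with less Pcsk1 and Pam were those with more early gene RNA. Atf3, a stress-induced factor of the cAMP response family, reached 336, 493 and 368 CPM in the knockout mice 11, 12 and 13 and 275 CPM in floxed 8, beside 3.07 and 4.48 CPM in floxed 18 and 19. Gcg, Sst and Ppy, hormones of other endocrine cells, were each highest in floxed 8, with Sst at 5738 CPM against 3066 to 3868 CPM and Ppy at 3461 CPM against 1242 to 2164 CPM elsewhere. The part of early genes, exocrine tissue or endocrine cell mix in these differences was not tested.

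**Figure D3:**
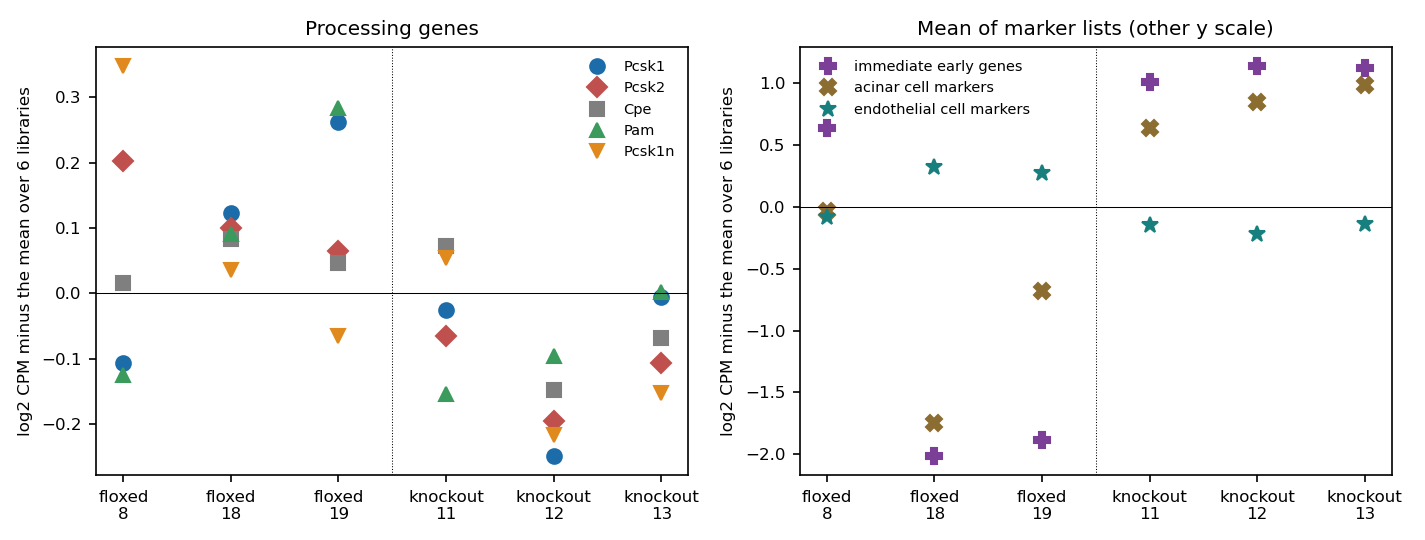
Left, log2 CPM of each processing gene minus its mean over the 6 libraries. Right, the same for the mean of 3 marker lists on a wider scale; the dotted line parts floxed from knockout libraries. Pcsk1 and Pam are low and Pcsk2 and Pcsk1n high in floxed 8, which has early genes near the knockout level.

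The genes most like each member over the 6 libraries were sought among 7991 other genes with a mean of at least 10 CPM. The members ranked from 23 (Cpe) to 174 (Pam) in level, so nearly all of those genes were less abundant. Pcsk2 was followed most closely by Arsa, a lysosomal sulfatase gene (difference 0.0061), then Mpi (0.012) and Ush1c (0.013). In floxed 8, 18 and 19 Arsa had 31.5, 29.1 and 28.4 CPM, against 26.0, 23.6 and 25.4 CPM in knockout 11, 12 and 13. Nearest to Pcsk1 were Chrnb2, a nicotinic receptor subunit gene (0.040), Lmf1 (0.042) and the glycolytic gene Pgk1 (0.043). Nearest to Cpe were the prion protein gene Prnp (0.023), Crtc1, a coactivator of CREB (0.024), and Slc12a9 (0.024). Pam had Galnt10 (0.027) and Pnpla6 (0.034) beside it, and Pcsk1n had Taf9 (0.032), Grina (0.039) and Vps29 (0.040). The other members ranked between 125 and 6121 in likeness, so none was among the 3 nearest genes of another. Exons of Arsa, Chrnb2 and Taf9 share 690, 1365 and 1119 bases with C230037L18Rik, Adar and Ak6. Those of Vps29, Prnp and Ush1c share 340, 145 and 120 bases with Fam216a, Prn and Gm9860. The counts of these genes are therefore uncertain. With 6 libraries and so many genes, close matches of this kind carry no test.

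Per kilobase of exon the levels fell into an upper and a lower tier. Cpe led with 1426 ± 111 CPM per kb in the knockout group and 1522 ± 36.0 in the floxed group (SD, n = 3 each). Pcsk1n followed at 577 ± 57.6 and 671 ± 103 CPM per kb and Pcsk2 at 517 ± 23.7 and 613 ± 30.7, and the gap between these neighbours was within the SD of Pcsk1n in the floxed group but not in the knockout group. Pcsk1n was above Pcsk2 in 6 of 6 libraries, by a ratio of 1.005 to 1.22. Pam stood at 64.8 ± 3.54 and 73.1 ± 10.3 CPM per kb and Pcsk1 at 58.1 ± 5.28 and 66.2 ± 8.42, a gap again within the spread of the floxed mice but not of the knockout mice. Pam was above Pcsk1 in 6 of 6 libraries, by a ratio of 1.02 to 1.24. Pcsk2 reads outnumbered Pcsk1 reads by a ratio, not corrected for length, of 8.30, 8.85 and 7.95 in knockout 11, 12 and 13 and 10.6, 8.40 and 7.44 in floxed 8, 18 and 19. The log2 ratio of Pcsk1 to Pcsk2 differed by 0.059 between the group means, with overlap (exact permutation p = 0.80). Exon lengths are unions over GENCODE transcripts, so a gene with an unused long end reads low on this scale.

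**Figure D4:**
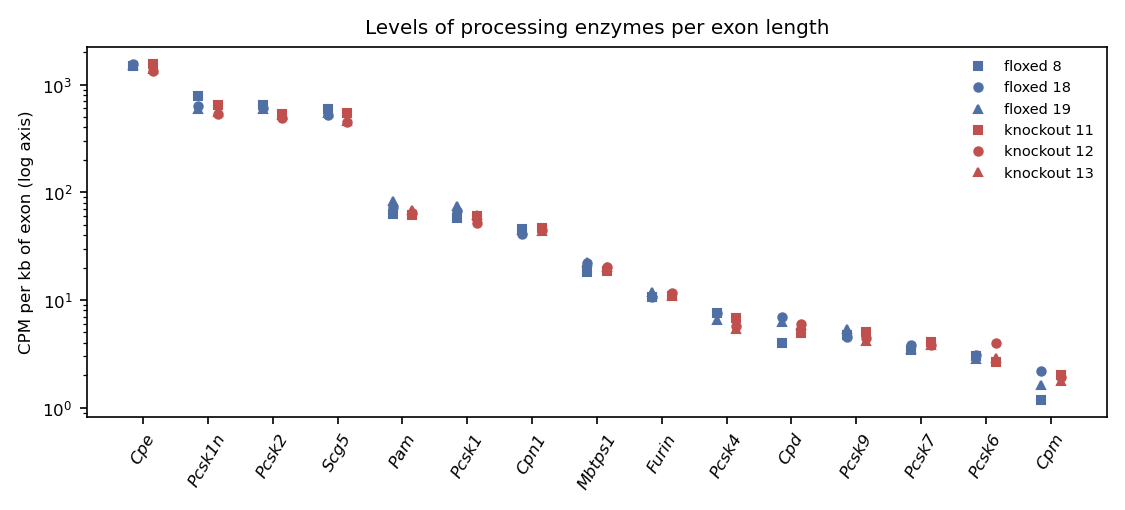
CPM per kilobase of exon, on a log axis, for the 5 members, the other convertases, other carboxypeptidases and Scg5, ordered by mean; points are libraries. Cpe, Pcsk1n, Pcsk2 and Scg5 stand at 448 CPM per kb or more, Pam and Pcsk1 between 52.0 and 83.5, and the other convertases at 22.3 or less.

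The other proprotein convertases were scarce beside these enzymes and 0 of 6 measured passed the test. Furin, which cleaves precursors in the Golgi of most cells, averaged 11.14 ± 0.413 CPM per kb in the knockout group and 11.03 ± 0.629 in the floxed group (SD, n = 3 each; log2 fold change 0.014). Mbtps1, the site-1 protease that activates ATF6 and SREBP, was at 19.7 ± 1.05 and 20.9 ± 2.23 CPM per kb. The largest difference of the 6 was that of Pcsk4, at -0.27 (edgeR adjusted p = 0.280). Of 6 measured carboxypeptidases, aminopeptidases and cathepsins 0 passed, and Cpd, the carboxypeptidase of the trans-Golgi network, was at -0.042. Ctsl, encoding cathepsin L, differed by 0.27 on the log2 scale (edgeR adjusted p = 0.383). Without floxed 8 it was called higher (0.41, edgeR adjusted p = 0.0451), 1 of 6 against 14.3% of all genes. An antisense gene and a pseudogene overlap its exons.

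Among genes that assist the members, 0 of 6 chaperones and granule helpers passed, with a median log2 fold change of -0.11 (-0.19 without floxed 8) and all 6 values negative, where 50.5% of all genes tested were negative. Values were also negative for 16 of 20 beta cell markers, 8 of 9 alpha cell markers, 11 of 16 pan-endocrine genes and 14 of 14 endothelial markers. Without floxed 8 these counts were 17 of 20, 4 of 9, 10 of 16 and 13 of 14, beside 49.1% of all genes. The alpha cell count thus depended on floxed 8. Of acinar markers 0 of 27 were negative, and of immediate early genes 0 of 16. Scg3, Ptprn and Ptprn2 are also in the pan-endocrine list and Slc30a8 in the beta cell list. Of 9 measured genes for amidation cofactors and other peptide modifications 0 passed and 7 were negative (median -0.13). Cyb561 encodes the granule membrane cytochrome that regenerates the ascorbate used by Pam. In floxed 8, 18 and 19 the level was 36.7, 43.2 and 47.0 CPM, against 35.8, 33.6 and 35.1 CPM in knockout 11, 12 and 13, with no overlap (log2 fold change -0.28, edgeR adjusted p = 0.216). Tpst1, a tyrosylprotein sulfotransferase gene, showed no overlap either (-0.36, adjusted p = 0.159). In either direction 24.3% of all genes tested had groups that did not overlap. Without floxed 8, Cyb561, Tpst1 and Qpctl, a glutaminyl cyclase gene, were called lower (-0.38, -0.41 and -0.36; edgeR adjusted p = 0.0128, 0.0374 and 0.0273), 3 of 9 against 14.3% of all genes. In that fit genotype and the level of early and acinar genes cannot be told apart. Exons of Cyb561 and Qpctl share 302 and 471 bases with Gm9910 and Fbxo46 on the opposite strand. Copper reaches Pam through Atp7a, whose log2 fold change was 0.20 (adjusted p = 0.501). Of 8 peptide-degrading proteases 0 passed, and the incretin-cleaving Dpp4, which alpha cells express, was at -0.28 (edgeR adjusted p = 0.147). Without floxed 8 it was called lower (-0.33, edgeR adjusted p = 0.0199), 1 of 8 against 14.3% of all genes.

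**Figure D5:**
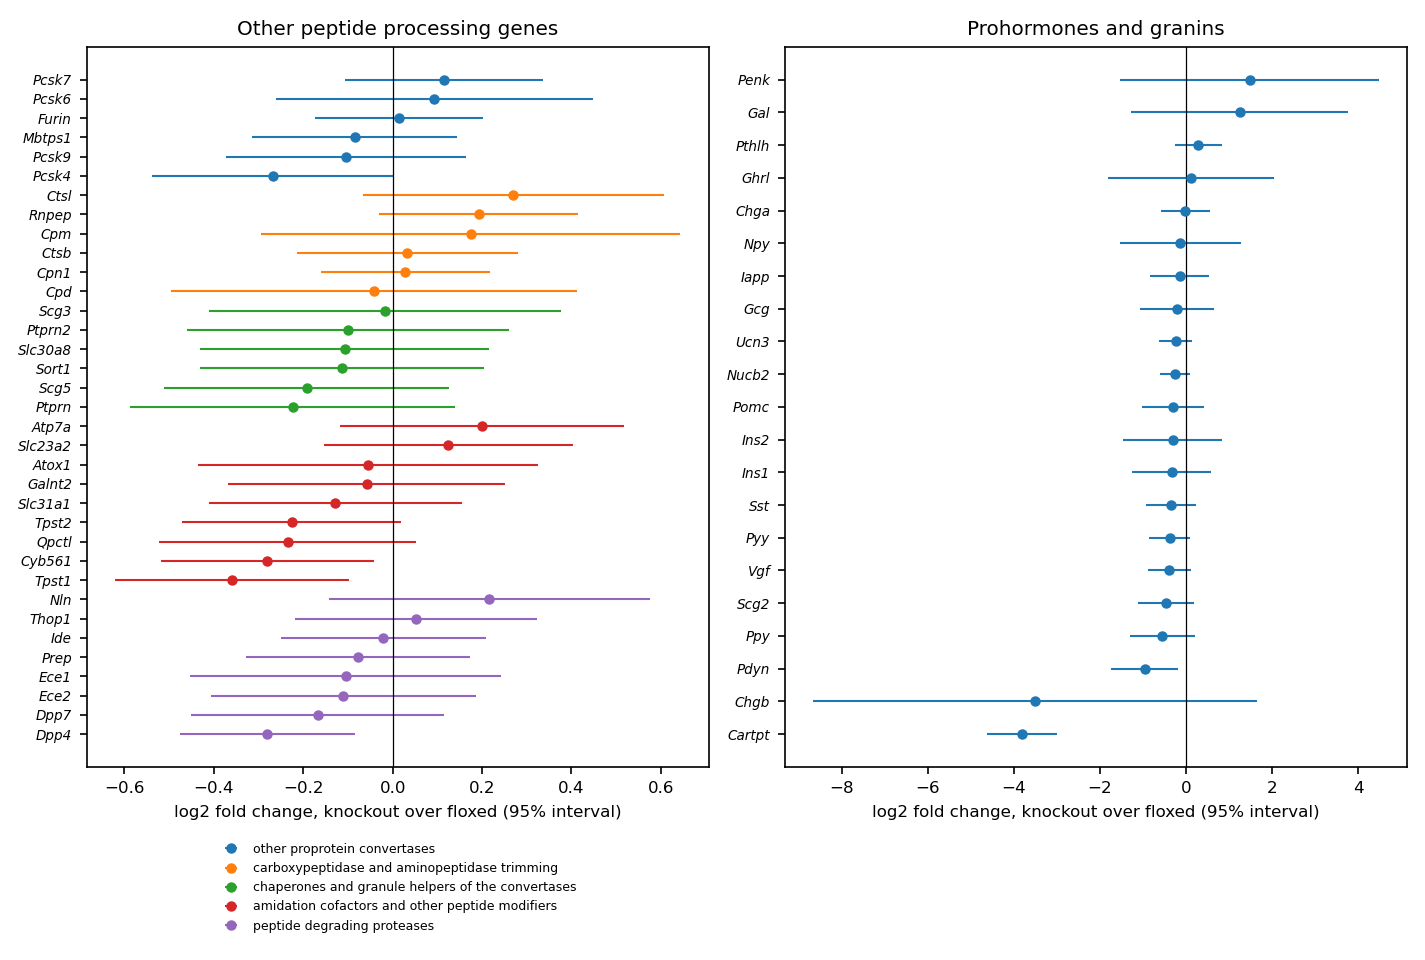
Log2 fold change, knockout over floxed, with its 95% interval from edgeR, for other peptide processing genes (left, coloured by list) and for prohormones and granins (right, wider scale). On the left the values run from -0.36 (Tpst1) to 0.27 (Ctsl), and on the right Cartpt (-3.81) and Chgb (-3.51) have the lowest values, that of Chgb with an interval from -8.67 to 1.64.

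Of 21 measured prohormones and granins, on which the enzymes act, 17 had negative values, beside 50.5% of all genes tested and 16 of 20 beta cell markers. Ins1, Ins2, Iapp and Ucn3, all negative, are in both lists, so these counts are not independent. The 21 had a median log2 fold change of -0.30. Without floxed 8 the count was 13 of 21, beside 49.1% of all genes, and the median -0.12. With all libraries 1 passed, Cartpt, the precursor of CART peptides, which fell by 3.81 on the log2 scale (edgeR adjusted p = 0.00841). That call was lost in 3 of 20 alternatives, without knockout 11 (adjusted p = 0.0856), without knockout 13 (0.0832) and with the acinar level in the fit (0.0565), and the value was negative in all 20. It was low in abundance, 0.228 to 0.389 CPM in knockout and 3.27 to 6.21 CPM in floxed libraries. Insulin reads, Ins1 and Ins2 together, numbered 1317, 1036 and 996 per Pcsk1 read in knockout 11, 12 and 13 and 1483, 1150 and 1072 in floxed 8, 18 and 19, so the groups overlapped. Of the 21 precursors 4 had all knockout libraries below all floxed libraries, Ins1, Iapp, Cartpt and Pdyn, where 10.2% of all genes tested did. Ins1 had 71888 to 96521 CPM in knockout and 102053 to 107846 CPM in floxed libraries (log2 fold change -0.33, edgeR adjusted p = 0.719), and Ins2 overlapped. Iapp, which encodes the amidated peptide amylin, ranged from 21558 to 23584 CPM over the knockout and from 23703 to 25840 CPM over the floxed libraries, with no overlap (log2 fold change -0.15, edgeR adjusted p = 0.837). Pdyn, the prodynorphin gene, had a value of -0.96 with no overlap (edgeR adjusted p = 0.207). Chgb, a granin of the same granules, reached 813 CPM in floxed 8 while the other 5 libraries held 11.4 to 26.8 CPM, so its log2 fold change of -3.51 (edgeR adjusted p = 0.439) rests on that library. The granin gene Chga held 7413 to 9274 CPM in the same libraries. Whether a counting or annotation fault set the Chgb values was not tested. Without floxed 8, Chgb, Gal and Pthlh were called higher and Cartpt, Nucb2 and Scg2 lower, 6 of 21 beside 14.3% of all genes. The Chgb call carries the same doubt about its counts.

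Levels relative to endocrine RNA were compared because exocrine RNA differed between the groups. The mean log2 CPM of 16 pan-endocrine genes, leaving the member out, was subtracted from that of each member, and 7 ratios in all were tested by exact two-sided permutation, whose smallest possible p is 0.10. The difference, knockout minus floxed, was -0.062 for Pcsk1, -0.12 for Pcsk2, 0.027 for Cpe, -0.041 for Pam and -0.087 for Pcsk1n (exact permutation p from 0.20 to 1; all 7 adjusted p = 1). Chgb is 1 of the 16, and its value in floxed 8 raised that library's reference. Without Chgb, a choice made after seeing the data, the log2 ratio of Pcsk2 was 3.42, 3.51 and 3.44 in knockout 11, 12 and 13 and 3.74, 3.58 and 3.58 in floxed 8, 18 and 19. The groups then did not overlap, with a difference of -0.18 (exact permutation p = 0.10), and the other 4 members still overlapped, with differences from -0.14 (Pcsk1n) to -0.030 (Cpe). With beta cell markers as the reference, Pcsk2 again showed no overlap (-0.22, exact permutation p = 0.10).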

How the data were processed

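The authors deposited estimated counts per gene for 6 islet libraries, without normalization. TRIzol RNA was read as 150-base pairs on the DNBSEQ-T7 platform, per the labels' protocols. The tools were fastp, HISAT2 and StringTie on mm10, per the submitters' processing notes; their versions, the counting rule and the strand setting are not given in those sources. Of 11106 genes, 1422 (12.8%) held a value that was not whole, and 0 of the 5 members did.

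Counts were rounded, genes filtered with filterByExpr (minimum count 10, minimum total 15), libraries scaled by TMM (factors 0.924 to 1.11) and groups compared by the robust quasi-likelihood test of edgeR without covariates (edgeR 4.0.16, R 4.3.3), which was tested on simulated data. P-values were adjusted by Benjamini-Hochberg over 11080 genes, with a threshold of 0.05. Standard errors come from the F statistic. Log2 CPM carry a prior count of 2. Single ratios were compared by exact permutation. DESeq2 1.42.0 and limma 3.58.1 (voom) were alternatives. The chi-square per gene between libraries of 1 group was 20.2 or more, above counting noise, and as separately numbered mice each counted as 1 sample. No litter or batch is given, so batch and group cannot be told apart. Exon positions and lengths come from GENCODE M21 (GRCm38, the assembly of mm10). The members and gene lists were chosen with earlier results of these data known. Named genes were the 5 members, members of the pathway lists, defining cell type markers and the 3 genes nearest in pattern to each member, of which 1 gene near Pam is not reported here. Which list genes to name was decided after their values were seen.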

Additional observations from a re-analysis of the deposited data

How the results depend on the processing

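In the 20 alternatives to the edgeR comparison, 0 of the 5 members passed, with at most 2 at an unadjusted p below 0.05. The lowest adjusted p was 0.0737 (Pcsk2, DESeq2). Scaling to the pan-endocrine list turned Cpe to 0.016, shifted the median of all genes to 0.12 and gave 323 genes called in place of 45, and the same scaling without Chgb, added after seeing the data, gave 71. The immediate early covariate turned Pcsk1 to 0.069 and Pam to 0.089 and gave 124 genes, and moved Pcsk1n to -0.50 (edgeR adjusted p = 0.212). The acinar covariate gave 0 genes (edgeR; 1015 at an unadjusted p below 0.05) and moved Pcsk1n to -0.42, Pcsk1 to -0.020, Cpe to -0.0024 and Pam to -0.055. DESeq2 called 564 genes, voom with quality weights 1671, and the fit without both floxed 8 and knockout 12, added after seeing the data, 1393. The cause of these shifts was not tested.

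With 1 library left out the count of genes called ran from 0 (without knockout 11, 1861 at an unadjusted p below 0.05, and without knockout 13, 1204) over 8 (without knockout 12), 16 (floxed 19) and 18 (floxed 18) to 1584 (floxed 8). Log2 fold changes then ran from -0.29 to -0.10 for Pcsk1, -0.28 to -0.21 for Pcsk2, -0.16 to -0.046 for Cpe, -0.28 to -0.068 for Pam and -0.31 to -0.092 for Pcsk1n. Ratios to the pan-endocrine list ran from -0.28 to 0.090 for Pcsk1, -0.19 to -0.082 for Pcsk2, -0.10 to 0.093 for Cpe, -0.26 to 0.13 for Pam and -0.13 to -0.046 for Pcsk1n. The ratio of Pcsk1 to Pcsk2 ran from -0.081 to 0.17 and that of Pcsk1n to Pcsk1 from -0.20 to 0.20. The ratio of Cpe was -0.067 with beta cell markers as the reference and -0.030 without Chgb. No paired analysis was possible because no animal number occurs in both groups and the labels name no litter. With 3 mice a group, the edgeR 95% intervals of the members reached as low as -0.67 (Pcsk2) and as high as 0.35 (Cpe) on the log2 scale. Their widths did not rank the genes as the spread between mice did. Pcsk2 and Cpe had standard errors of 0.19 and 0.20, with coefficients of variation up to 5.02% and 7.78%. Pcsk1 and Pam had 0.13 each with up to 12.7% and 14.1%, and Pcsk1n 0.18 with up to 15.4%. For Pcsk2 the standard error was 0.088 in DESeq2 and 0.147 in limma-voom.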
